A study of Mus musculus with 6 samples.

Results

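The regions described here are the 5-hydroxymethylcytosine (5hmC) peaks that were called in D2018A mouse embryonic stem cells (mESCs) and had no WT peak at their position. They were chosen by comparing the deposited D2018A and WT peak lists. A D2018A peak was kept when it shared 0 bp with every WT peak of its chromosome. Chromosomes 5, 8 and X were left out. By this rule 478 of the 588 D2018A peaks on the 17 chromosomes used were D2018A-only, 81.3% of them (95% Wilson interval 77.9 to 84.2%). Both lists together held 2069 peaks on all chromosomes. The absence of a WT call does not show less 5hmC in WT or more in D2018A, because the reads behind each list, and so the depth at which a WT peak could have been called, are unknown. The positions chose the regions, so every value below is given as a description with no test.

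TET enzymes oxidize the methyl group of 5-methylcytosine to give 5hmC, which can be an intermediate on the way to unmethylated cytosine or a stable mark. TET1 and TET2 are the TET proteins known for this activity in mESCs, where 5hmC is found in gene bodies and at regulatory regions. OGT, a glycosyltransferase that modifies many proteins inside the cell with single GlcNAc units (O-GlcNAc), is a binding partner of TET1. The D2018A substitution, of an aspartate by an alanine in the C-terminal part of TET1, weakens this binding. The comparison of WT and D2018A cells asks where 5hmC lies when TET1 and OGT associate less.

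All cells came from the mESC line LF2, and both copies of Tet1 had been edited in each line. The WT group (lines 2 and 5) carried wild type TET1 with a C-terminal FLAG tag, and the D2018A group (lines 7 and 8) carried the same tag on TET1 with the substitution. Each line was grown from a single cell, so that a group of 2 lines is 2 clones, and all were cultured with LIF and serum. In 5hmC-Seal, 5hmC in fragmented DNA is tagged with an azide-bearing glucose, linked to biotin and captured on streptavidin beads before sequencing. Each genotype also had 1 input library made without labelling or capture. One peak list per genotype was deposited, with no values for the single lines, so the spread between lines cannot be given. The study describes a deletion, found in WT but not in D2018A cells, that lies distal to the site cut for the editing of Tet1. Whether any D2018A-only peak lies in it was not analysed here. No sequence and no gene annotation on mm9, the genome build of the lists, was at hand, so the peaks are given by position and were not assigned to genes, exons, introns or UTRs.

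Most D2018A-only peaks had low scores, as did most peaks of both lists. Each peak has a score, which is 10 times the negative log10 of the p-value that the peak caller MACS gave it, so that a higher score stands for a smaller p. Scores of D2018A-only peaks ran from 50.02 to 129.01 (caller's p-values of 9.95e-06 and 1.26e-13), with a median of 56.3 (95% interval of the median 55.4 to 57.4) and an interquartile range of 52.5 to 62.7. Of the 478 peaks, 322 (67.4%) had a score under 60, as had 370 of all 588 D2018A peaks (62.9%) and, on the scale of its own list, 411 of the 721 WT-only peaks (57.0%). The WT-only scores had a median of 57.98 and an interquartile range of 53.1 to 66.05. A score under 52 was found in 96 D2018A-only peaks (20.1%). Of the 110 D2018A peaks shared with WT, 11 (10%) had a score under 52. Many peaks had the same score, with 361 distinct values among the 478 peaks. The score of 50.8 was shared by 26 of them, 58.65 by 9 and 61.74 by 7.

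The share of D2018A peaks that were D2018A-only was lower in each higher band of score. Of the 370 D2018A peaks with a score from 50 to under 60, 322 were D2018A-only (87.0%, interval 83.2 to 90.1%). This share was 76.6% (128 of 167 peaks, 69.7 to 82.4%) from 60 to under 80 and 65.6% (21 of 32, 48.3 to 79.6%) from 80 to under 100. At a score of at least 100 it was 36.8% (7 of 19, 19.1 to 59.0%). With 60 as the lowest score allowed in either list, 13 of these 19 peaks were D2018A-only. The share in this highest band therefore depends on which WT peaks are counted. The bands hold unequal numbers of peaks, and those above 80 are few. Of the 588 D2018A peaks on the chromosomes used 3.23% reached a score of 100, against 1.46% of the D2018A-only peaks. The median score of the 110 D2018A peaks shared with WT was 61.8 (59.4 to 66.4). The intervals cover counting error only, and the score is part of what decides whether a peak is called at all.

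Median widths were smaller in the D2018A list than in the WT list, for shared peaks and for those of 1 list only, although single D2018A peaks were wider than WT peaks. The D2018A-only peaks were 105 to 1598 bp wide, with a median of 343.5 bp (337 to 352 bp) and an interquartile range of 288.25 to 406.5 bp, and they covered 175338 bp in all. The 110 shared D2018A peaks had a median width of 417.5 bp (380 to 442 bp), and the 109 WT peaks that they overlap had one of 619 bp (575 to 673 bp). The 721 WT-only peaks, which made up 86.9% of the 830 WT peaks on these chromosomes, had a median width of 580 bp (561 to 589 bp), and the narrowest of them was 281 bp. Of the D2018A-only peaks, 102 (21.3%) were narrower than that, and 428 (89.5%) were narrower than the lower quartile of the WT-only peaks, 487 bp. The settings with which each list was called are not given in the sources used here. Wider D2018A-only peaks had higher scores (Spearman's rho 0.41 across the 478 peaks, which come from the same libraries). The 120 peaks from 406.5 bp upwards in width had a median score of 61.9, and the 120 narrowest had one of 53.7. From one score band to the next the median width was 327.5, 385, 527 and 746 bp.

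**Figure D1:**
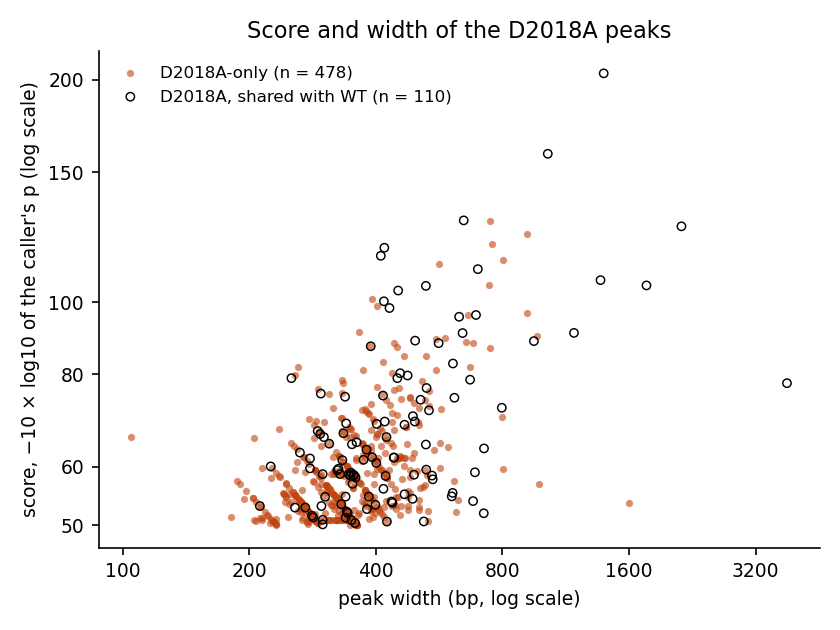
Score (vertical axis, 10 times the negative log10 of the caller's p) against width in bp (horizontal axis) for the 478 D2018A-only peaks (filled points) and the 110 D2018A peaks shared with WT (open circles), both axes logarithmic. Of the D2018A-only peaks 67.4% lie under a score of 60, and the peaks with a score above 129.01 are all shared.

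The 5 widest D2018A-only peaks had both low and high scores. The widest was chr12:20238629-20240226 (1598 bp), which had a score of 53.67. It was followed by chr12:86231085-86232062 (978 bp, score 56.91) and chr14:99664738-99665705 (968 bp, score 90.03), and then by chr17:30889343-30890259 (917 bp, score 123.89) and chr17:30883534-30884446 (913 bp, score 96.76). The last 3 of these 5 were among the higher-scoring D2018A-only peaks, and those on chromosome 17 are described further below. At the other end, chr6:38298521-38298625 was 105 bp wide with a score of 65.75. The next narrowest peak was 181 bp wide (chr19:29098936-29099116, score 51.27). Those after it, chr2:90235248-90235434, chr4:129528837-129529026 and chr19:41179774-41179967, were 187, 190 and 194 bp wide with scores of 57.46, 56.9 and 54.19.

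The 10 highest-scoring D2018A-only peaks lay on 7 chromosomes. The first was chr3:148480373-148481118, with a score of 129.01 and a width of 746 bp, which ranked 4 among the 588 D2018A peaks. Its nearest WT peak lay 3078292 bp away. On chromosome 17, chr17:30889343-30890259 had a score of 123.89 and lay only 3148 bp from a WT peak, whereas chr17:12420119-12420873 had a score of 119.78 and lay 1888531 bp from one. The next were chr13:112545266-112546066 (score 114.19, 895733 bp from a WT peak) and chr7:30679274-30679838 (score 112.6, 64301 bp). Scores just above 100 were reached by chr11:69153780-69154522 (105.6, 5380 bp from a WT peak) and chr14:32435929-32436319 (101.02, 982498 bp). The last of the 10 were chr1:168094671-168095073 (98.96, 1466866 bp), chr17:30883534-30884446 (96.76, 976 bp) and chr17:30970079-30970740 (96.04, 28899 bp). In this group 3 peaks lay within 10 kb of a WT peak and 5 lay more than 100 kb away. Of the 3 near peaks, those on chromosome 17 lay on either side of the same WT peak. A high score was thus found both within 10 kb of a WT peak and more than 100 kb from any. Of the 10, 8 were wider than the upper quartile of D2018A-only peaks.

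Most D2018A-only peaks lay more than 100 kb from the nearest WT peak. The distance to be expected from the number of peaks alone was not computed, so this does not show a separation of the lists. The distance was measured as the number of bases between the facing edges, and its median was 217971 bp (171738 to 258020 bp), with an interquartile range of 57136 to 861691 bp. Within 1 kb of a WT peak lay 18 D2018A-only peaks (3.77%, 2.40 to 5.87%), within 10 kb 57 (11.9%, 9.32 to 15.1%), within 100 kb 161 (33.7%, 29.6 to 38.0%) and within 1000 kb 367 (76.8%, 72.8 to 80.3%). For the 721 WT-only peaks and their nearest D2018A peak these shares were 1.66%, 7.35%, 25.1% and 69.2%, with a median distance of 364286 bp. The WT-only distances run to a list with fewer peaks (588 against 830), and with fewer targets distances are longer, so the 2 sets of distances were not compared further. The WT peak nearest to a D2018A-only peak was itself shared with D2018A in 62 cases (13.0%, 10.3 to 16.3%), and 13.1% of all WT peaks were shared.

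**Figure D2:**
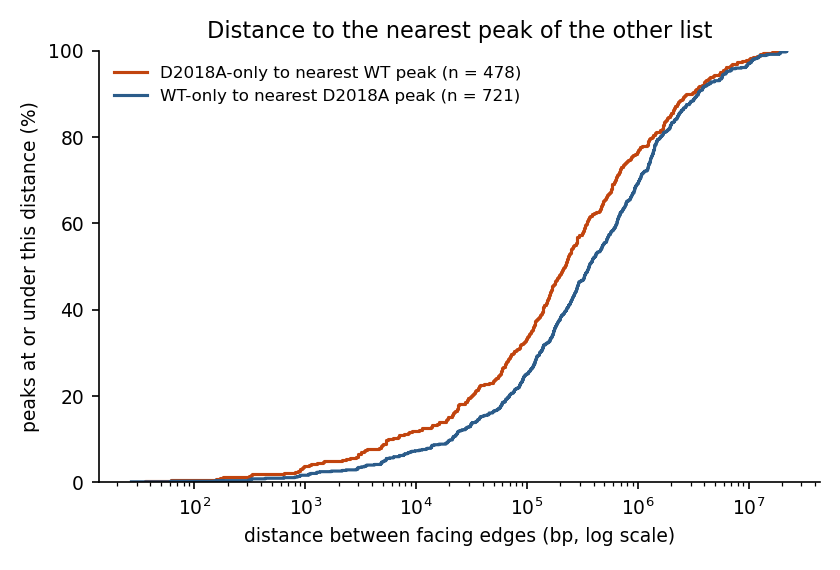
Share of peaks (vertical axis, %) whose distance to the nearest peak of the other list is at or below the value on the horizontal axis (bp, logarithmic). The line for the 478 D2018A-only peaks reaches 33.7% at 100 kb, and that for the 721 WT-only peaks reaches 25.1% there.

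Just inside the rule were D2018A-only peaks that nearly touched a WT peak. The closest was chr2:33962978-33963377 (score 65.85), with 27 bp between it and the WT peak chr2:33963405-33964261 (WT score 59.46). It was followed by chr4:136326866-136327176 (55.92, 36 bp), chr1:75471516-75471962 (52.64, 61 bp), chr17:27251223-27251557 (60.98, 155 bp) and chr17:35561956-35562257 (69.06, 169 bp). The WT peaks beside these 4 had WT scores of 74.42, 88.4, 53.86 and 69.06. Just outside the rule, the smallest overlap of a shared peak was 212 bp, at chr10:127159167-127159378 (score 53.1), which lay wholly inside a WT peak. The next smallest overlaps were 225 bp at chr3:88286364-88286588 (60.06), 235 bp at chr19:6481192-6481490 (50.15), 252 bp at chr2:31353143-31353394 (79.03) and 253 bp at chr4:151920953-151921301 (58.89). No shared peak therefore owed its status to an overlap of a few bases. Of the 110 shared peaks, 74 (67.3%, 58.1 to 75.3%) lay wholly inside a WT peak. Among the 18 D2018A-only peaks within 1 kb of a WT peak, which were spread over 10 chromosomes, 7 had a shared peak as their WT neighbour.

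Median scores were higher within 10 kb of a WT peak than beyond, with overlapping intervals. The median score was 62.4 (53.2 to 67.2) for the 18 peaks under 1 kb from a WT peak and 59.4 (56.2 to 62.0) for the 39 peaks from 1 to under 10 kb. It was 55.9 (54.4 to 58.8) for the 104 peaks from 10 to under 100 kb, 56.1 (55.0 to 57.9) for the 206 peaks from 100 kb to under 1 Mb, and 55.5 (54.3 to 57.2) for the 111 peaks at 1 Mb or more. The intervals of all 5 classes overlap, and across the 478 peaks Spearman's rho of score and distance was -0.10. Median widths in these classes were between 339 and 372 bp. Scores of at least 80 occurred in every class, in 1, 5, 8, 8 and 6 peaks, 28 in all. Read by score, the share of D2018A-only peaks within 10 kb of a WT peak was 9.32% (30 of 322, 6.60 to 13.0%) from 50 to under 60 and 16.4% (21 of 128, 10.99 to 23.8%) from 60 to under 80. It was 19.0% (4 of 21, 7.67 to 40.0%) from 80 to under 100 and 28.6% (2 of 7, 8.22 to 64.1%) at 100 or more. The share was higher in each higher band, with overlapping intervals and few peaks in the upper bands. The median distance to WT in these bands did not follow that order. It was 243558, 162428 and 75829 bp in the first 3 bands and 895733 bp in the 7 peaks at 100 or more.

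**Figure D3:**
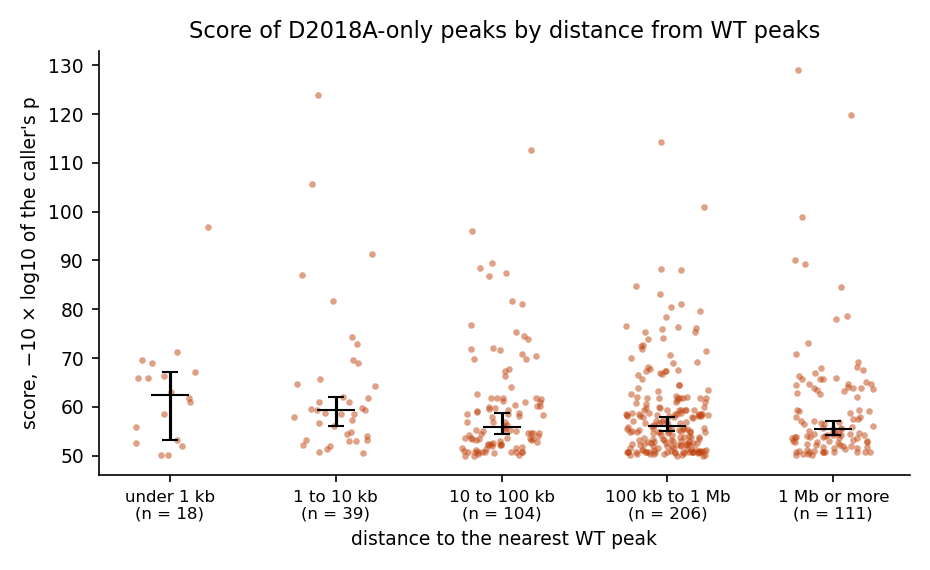
Score of each D2018A-only peak (points, vertical axis) in 5 classes of distance to the nearest WT peak (horizontal axis, spread sideways for display only). Horizontal bars are medians with 95% binomial intervals of the median, which overlap between all classes, from 62.4 under 1 kb to 55.5 at 1 Mb or more.

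Some D2018A-only peaks stood in long stretches without a WT peak. The farthest from any was chr4:3740882-3741347, with a score of 84.62 and a distance of 18047922 bp to the nearest WT peak. On chromosome 12 the neighbouring peaks chr12:20235869-20236496 (score 54.06) and chr12:20238629-20240226 (53.67) lay 16327736 and 16330496 bp from the nearest WT peak. The peak chr18:21306251-21306843 (63.78) lay 13399996 bp from one, and chr3:6137005-6137327 (50.8) 12699970 bp. Before the first WT peak of their chromosome lay 10 D2018A-only peaks, and 10 others lay past the last.

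Every chromosome used had D2018A-only peaks, from 12 on chromosome 16 to 50 on chromosome 4. Chromosomes 4, 11, 12, 17 and 2 together held 220 of the 478 (46.0%), and they held 357 of the 830 WT peaks (43.0%). The share of a chromosome's D2018A peaks that were D2018A-only was lowest on chromosome 15 (19 of 29, 65.5%, 47.3 to 80.1%) and highest on chromosome 6 (21 of 23, 91.3%, 73.2 to 97.6%), and these intervals overlap. Chromosome 15 had 59 WT peaks and chromosome 6 had 28. The D2018A and WT lists were nearest in length on chromosomes 19 (29 and 30 peaks), 12 (57 and 59) and 14 (24 and 26). The median score per chromosome lay between 53.98 (chromosome 19) and 61.1 (chromosome 4), and the median width between 303 and 404 bp.

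**Figure D4:**
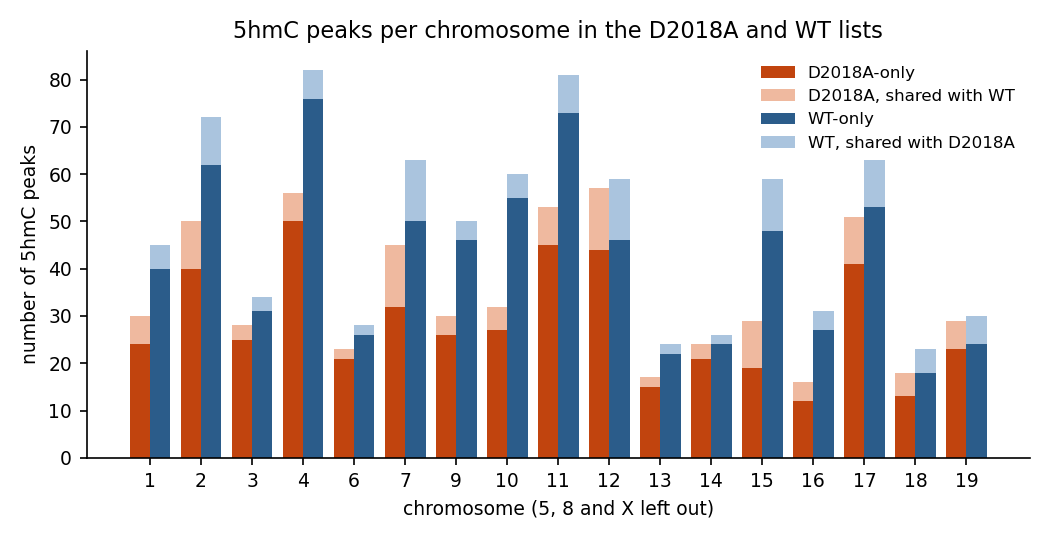
Number of 5hmC peaks (vertical axis) on each chromosome used (horizontal axis), with D2018A peaks in the left bar and WT peaks in the right bar, each divided into peaks of that list only and peaks shared with the other list. D2018A-only peaks make up most of every left bar, from 65.5% on chromosome 15 to 91.3% on chromosome 6.

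The highest-scoring D2018A-only peak of each chromosome had a score between 65.82 and 129.01. Beside the chromosomes with a peak among the 10 described above, scores above 85 were reached by chr10:75866282-75866645 (91.31, 5394 bp from a WT peak), chr16:94373367-94373949 (89.51, 75829 bp), chr19:6320220-6320899 (88.22, 160356 bp), chr4:141217015-141217455 (88.11, 121212 bp), chr9:118943799-118944246 (87.11, 2152 bp) and chr12:85534005-85534752 (86.77, 34265 bp). The leading peaks of the other chromosomes had lower scores. They were chr2:25293290-25293706 (83.08), chr15:27810935-27811225 (76.34), chr18:67633301-67633677 (71.88) and chr6:143170368-143170715 (65.82).

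Most D2018A-only peaks, like most WT-only peaks, had no other peak of their own set within 10 kb. The share to be expected from scattered positions was not computed. With a gap of at most 10 kb between neighbours, 46 of them (9.62%, 7.29 to 12.6%) stood in 22 clusters, of which 20 were pairs and 2 held 3 peaks. The clusters spanned 722 to 10611 bp (median 4503 bp) and lay on 9 chromosomes. Chromosomes 12 and 17 had 5 each, with 10 of 44 and 11 of 41 D2018A-only peaks, and chromosome 4 had 4. Among the WT-only peaks 75 of 721 (10.4%, 8.38 to 12.8%) stood in clusters by the same limit. With gaps of at most 1 kb the shares were 1.46% of D2018A-only and 3.88% of WT-only peaks. At 100 kb they were 24.3% and 31.2%. The lists differ in length, and these shares were not tested against each other. Another D2018A peak, shared or not, lay within 10 kb of 56 of the 478 D2018A-only peaks (11.7%, 9.13 to 14.9%) and of 26 of the 110 shared ones (23.6%, 16.7 to 32.4%). Of those 56, 46 had another D2018A-only peak that near and 10 had only a shared peak.

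The 2 clusters of 3 differed in their surroundings. On chromosome 4, chr4:148311327-148311841 (score 78.36), chr4:148312037-148312425 (52.29) and chr4:148312656-148313178 (59.46) followed each other within 1852 bp. No WT peak was closer to them than 281329 bp. On chromosome 17, chr17:30881358-30881970 (57.4), chr17:30883534-30884446 (96.76) and chr17:30889343-30890259 (123.89) stood within 8902 bp on both sides of a shared peak.

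This cluster on chromosome 17 was part of the longest chain of D2018A-only peaks with gaps of at most 100 kb, which was singled out after the values had been seen. Its 7 peaks ran from 30815534 to 30970740 (155.2 kb) and made up 7 of the 41 D2018A-only peaks of the chromosome (17.1%). Along the chain the scores were 55.36, 52.86, 88.4, 57.4, 96.76, 123.89 and 96.04, with a median of 88.4, and 4 of the 28 D2018A-only peaks with a score of at least 80 stood here. All 7 were wider than the upper quartile of D2018A-only peaks, with a median width of 656 bp. The WT list had 0 peaks of its own inside the chain, and 4 D2018A peaks there were shared with 4 WT peaks. At these 4 shared positions, the first of which is chr17:30885067-30886825, the D2018A scores were 105.45, 54.72, 63.52 and 57.7 and the WT scores were 50.63, 76.05, 57.73 and 55.89. Each score belongs to its own list, so these values do not show a difference in 5hmC. WT-only peaks flanked the chain, with chr17:30793340-30794296 (WT score 69.95) before it and 3 peaks starting at 31001585, 31008724 and 31010708 after it. Read coverage of the input libraries over this stretch was not analysed here.

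**Figure D5:**
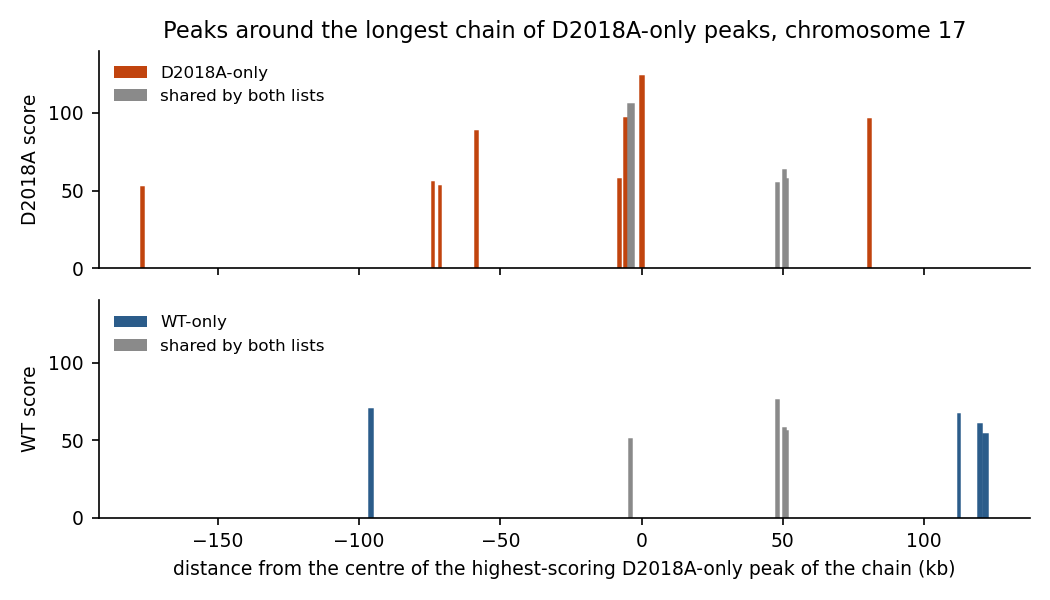
Score of each peak (vertical axis) against its distance in kb from the centre of the highest-scoring D2018A-only peak of the chain (horizontal axis), with the D2018A list above and the WT list below, outlines thickened so that short peaks can be seen, colored bars for peaks of 1 list only and grey bars for shared peaks. The 7 D2018A-only peaks of the chain lie between -74.0 and 80.6 kb, and the peak at -176.87 kb lies outside the chain (scores are to be read within each list).

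Among D2018A peaks with a score of at least 100, 12 of 19 were shared with WT. The WT peaks at these 12 positions had WT scores from 50.63 to 394.35, and 6 of them were under 60. Read the other way, 13 of the 37 WT peaks with a WT score of at least 100 were shared, and the D2018A peaks there had scores from 53.92 to 203.94, of which 3 were under 60. Both sets were picked for a high score in their own list, so no change is read from either count. For the 7 D2018A-only peaks with a score of at least 100, the nearest WT peak lay between 3148 and 3078292 bp away.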

How the data were processed

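5hmC-Seal had been performed on 2 WT and 2 D2018A lines with 1 input library per genotype. According to the methods, reads were trimmed with Trim_Galore, aligned with bowtie to mm9 and passed to MACS1.4. The authors deposited 1 peak list per genotype, and its score is 10 times the negative log10 of the caller's p-value. Settings of MACS, the use of the inputs and the joining of the lines are not given in the sources used here. Depth is unknown, and there were 0 other columns of values.

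From the lists, overlap (at least 1 bp), distance between facing edges, width and score were computed with Python 3.11.15, numpy 2.4.6, pandas 2.3.3 and scipy 1.17.1, and plotted with matplotlib 3.10.9. Starts were converted to count from 1. Shares have 95% Wilson intervals and medians have exact binomial intervals, both for counting error only. Overlaps, distances and clusters were checked on simulated lists with known answers. No test was run, because the genotype comparison chose the peaks and each genotype has 1 list. The reference at hand was of GRCm38 and was not used.

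The text names the 10 highest-scoring peaks, the 5 widest, narrowest, nearest to and farthest from a WT peak, the 5 shared peaks with the smallest overlap, clusters of at least 3 (gaps of at most 10 kb) and the best of each chromosome. The members and lists were chosen with earlier results of these data known.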

Additional observations from a re-analysis of the deposited data

How the results depend on the processing

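The 7 main values (number, median score, width and distance, and the numbers within 10 kb of a WT peak, with a score of at least 100 and in clusters) were recomputed under 10 settings. Of 58 values, 39 stayed within 1.5 times the count or within the interval of the median, and 19 moved. With a score of at least 80 in D2018A, 28 peaks were left, with a median score of 88.8, width of 561 bp and distance of 98521 bp, 6 peaks within 10 kb and 2 in clusters. When 60 was the lowest score allowed in either list these values were 176, 67.7, 399 bp, 382451 bp, 12 and 9, and 13 peaks had a score of at least 100, since WT peaks under 60 no longer counted. Fewer peaks in the lists account for the lower counts by construction. Requiring 50% of both peaks to overlap put 87 peaks within 10 kb, since partly overlapping peaks joined them. With all chromosomes the median distance was 157303 bp, with 99 peaks within 10 kb and 77 in clusters, among 650 peaks. A gap of 1000 bp left 7 peaks in clusters and one of 100000 bp gave 116. For WT-only peaks these counts were 28 and 225. Counting gaps of up to 1000 bp as shared and merging peaks within 1000 bp moved none of the values by these limits. Neither did widening each D2018A peak by 116 bp on both sides or leaving out the chain on chromosome 17 (chosen after seeing the data). These settings gave 460, 470, 475 and 471 peaks in place of 478, so they could change little. With gaps counted as shared, the number within 10 kb still fell from 57 to 39 and that in clusters from 46 to 37. No label pairs a WT line with a D2018A line, so no paired analysis was made. Values of single lines were not at hand, which kept any line from being left out. Depth is unknown, so a peak missing from WT may not have been detectable there.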

Other observations

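Read along each chromosome, D2018A-only peaks with no WT peak between them formed 302 runs, of which 195 were a single peak and 14 held at least 4. The 107 runs of at least 2 peaks held 283 of the 478 D2018A-only peaks (59.2%). The longest run held 7 peaks and reached from 12420119 to 25534875 on chromosome 17 (13.1 Mb). Runs of 6 peaks were found on chromosome 14 from 20617684 to 32480498 (11.9 Mb) and on chromosome 4 from 149021134 to 150750635 (1.73 Mb). The run on chromosome 17 opens with the third highest-scoring D2018A-only peak and lies before the chain described above. These runs were looked for after the data had been seen. Runs arise wherever 2 lists are interleaved, and the number to be expected from the list lengths alone was not computed. Whether the runs differ from those of WT-only peaks was not tested.

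On the chromosomes left out of the description, 172 of 251 D2018A peaks had no WT peak at their position, 69 of 99 on chromosome 5, 101 of 150 on chromosome 8 and both of the 2 on chromosome X.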
